A study of Sus scrofa with 3 samples.

Results

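The pig genome assembly Sscrofa10.2 holds, beside its chromosomes, stretches of sequence that were assembled but not assigned to any chromosome. These unplaced scaffolds have names that start with GL or JH. The transcripts described here are the listed assembled transcripts whose chromosome entry contained GL or JH, each counted once. Identifiers are not consecutive, so the list does not hold every assembled transcript. The study searched for lincRNAs among transcripts absent from the reference annotation. Below, a transcript means a listed one, and counts per scaffold, and words such as alone or only, refer to the list. Of 14580 distinct transcripts, 1744 (12.0%) lay on unplaced scaffolds, 12427 on chromosomes 1 to 18 and 409 on chromosome X. No FPKM value entered the choice of scaffold transcripts. The study assembled its transcripts from reads of its RIP-Seq and lincRNAseq data, however. Whether a transcript is listed is therefore not independent of its detection in these libraries.

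EZH2 is a histone methyltransferase and the active enzyme of the Polycomb complex PRC2, which methylates histone H3 and thereby keeps genes silent, in muscle precursors among other cells. In RNA immunoprecipitation, an antibody against a protein recovers the RNA that is attached to it. Unplaced scaffolds of a draft genome are often short and often hold repeated or duplicated sequence, which is hard to anchor to a chromosome and to which short reads can map ambiguously.

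The RNA came from longissimus dorsi, a long muscle of the back, of Large White female pigs aged 1 month. The study's Results describe precipitation from muscle of a single pig of this age and lincRNAseq of the same sample. Its Methods write of pigs, in the plural, for RIP-Seq. An antibody against EZH2 was used for the EZH2 RIP-Seq library and IgG, the antibody control, for the IgG RIP-Seq library. The lincRNAseq library was made from total RNA of this muscle after ribosomal RNA had been removed, and its values stand for the abundance of a transcript in the tissue. Each of these 3 conditions had 1 library, so no difference between libraries has a replicate check, and how a library was prepared cannot be told apart from what was precipitated. Values are FPKM, defined as fragments scaled by transcript length and by the library's mapped fragments. They are called EZH2_FPKM, IgG_FPKM and lincRNA_FPKM. A transcript is called detected where its FPKM was above 0.

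Total fragments are not known from FPKM, but the steps between low values give the relative weight of 1 fragment in both precipitates. That weight reflects relative depth only where each library was scaled by its own mapped fragments. The scaling setting is not given in the sources used here. Among 815 transcripts detected in both, the commonest ratio of IgG_FPKM to EZH2_FPKM, compared at 3 significant digits, was 5.05, shared by 79 transcripts. A further 57 transcripts had a ratio at 1/2 of it and 29 had a ratio of 2 times it. Values made of a few whole fragments take such steps, so that 1 fragment added about 5.05 times as much to an IgG_FPKM as to an EZH2_FPKM. Of the 100 scaffold transcripts detected in both precipitates, 16 had the commonest ratio. An IgG_FPKM of 0 is therefore a weaker statement than an EZH2_FPKM of 0. No such step stood out for lincRNAseq, where the commonest ratio to EZH2_FPKM was shared by 23 of 5523 transcripts.

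The 1744 transcripts were spread over 676 scaffolds. Most of them, 1530 on 603 scaffolds, carried the GL prefix, and 214 on 73 scaffolds carried the JH prefix. A single listed transcript was found on 359 scaffolds, while 22 scaffolds held 10 or more and together carried 316 transcripts. The scaffolds with the most transcripts were JH118724.1 with 34, GL892391.1 with 27, GL895144.1 and GL895582.1 with 20 each, and GL894420.1 with 17.

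Detection of scaffold transcripts differed from that of chromosomal transcripts in lincRNAseq and was close to it in the precipitates. In lincRNAseq, 1637 scaffold transcripts were detected (93.9%, 95% Wilson interval 92.6 to 94.9), against 84.6% on chromosomes 1 to 18 (84.0 to 85.3). The difference of 9.23 percentage points had an interval of 7.86 to 10.5. The share lay above that of all 18 chromosomes, which ran from 81.4% on chromosome 8 to 86.8% on chromosome 13, and above the 76.3% of chromosome X. Intervals of shares cover counting error over transcripts only, and transcripts are not replicates of a condition.

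In the EZH2 precipitate, 724 scaffold transcripts were detected (41.5%, 39.2 to 43.8), against 42.8% on chromosomes 1 to 18 (41.9 to 43.7). The difference was -1.27 percentage points, with an interval of -3.72 to 1.21 that holds 0. Of the 18 chromosomes, 9 had a lower and 9 a higher share than the scaffolds. In the IgG precipitate, 128 scaffold transcripts were detected (7.34%, 6.21 to 8.66), against 7.10% on chromosomes 1 to 18 (6.66 to 7.56). The scaffold share again lay inside the range of the chromosomes, which was 4.95% to 9.54%. A difference in detection from the chromosomes over all transcripts was thus not detectable in either precipitate.

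**Figure D1:**
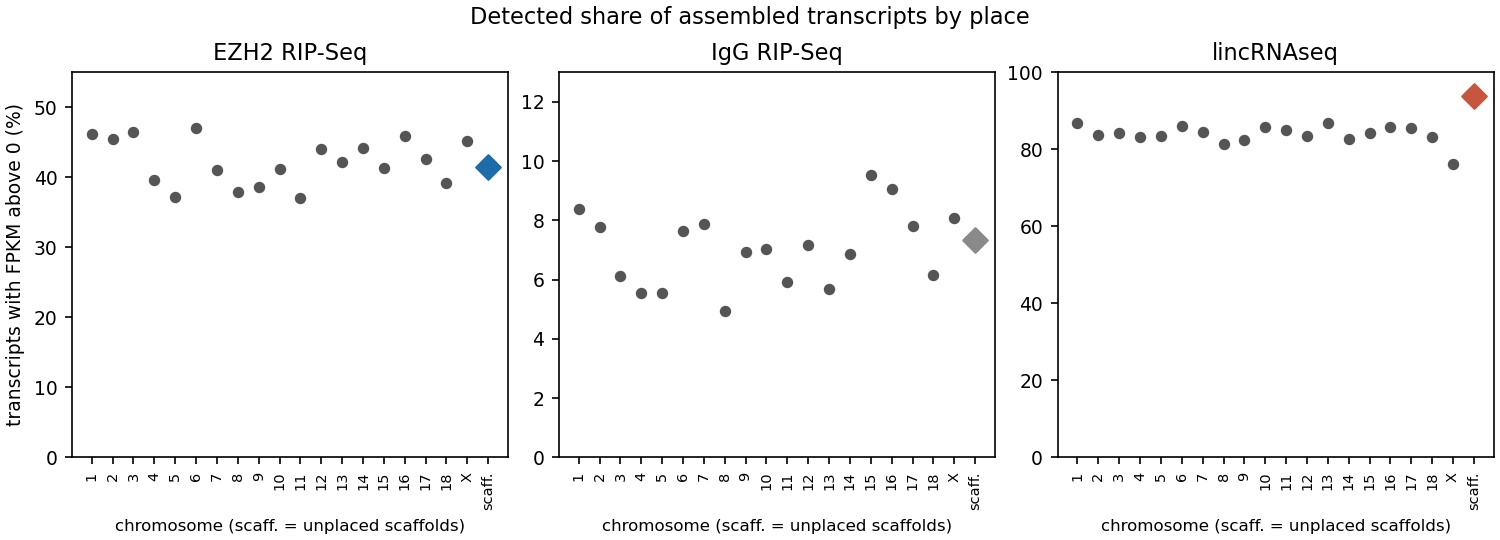
Percent of assembled transcripts with FPKM above 0 (vertical axes, each with its own range) on each chromosome (grey circles) and on the unplaced scaffolds (coloured diamond), in the 3 libraries. Scaffolds sit among the chromosomes in EZH2 RIP-Seq at 41.5% and IgG RIP-Seq at 7.34%, and above them all in lincRNAseq at 93.9%.

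Where scaffold transcripts were detected, their FPKM values were higher than those of chromosomal transcripts in all 3 libraries. The median lincRNA_FPKM of detected scaffold transcripts was 1.33, against 0.441 on chromosomes 1 to 18, and no single chromosome exceeded 0.504. The median EZH2_FPKM was 5.59 against 3.14, with a highest chromosome median of 3.76, while chromosome X had 5.60. The median IgG_FPKM was 13.9 against 5.38, with a highest chromosome median of 8.44 and 11.1 on chromosome X. On the log2(FPKM + 2) scale, these medians differed by 0.45 in lincRNAseq, 0.56 in EZH2 RIP-Seq and 1.11 in IgG RIP-Seq. This scale understates differences between low values, which bears most on lincRNAseq.

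The shape of the shift was not the same in the libraries. At the 10th percentile of detected transcripts, scaffold values were 1.49 times those of chromosomes 1 to 18 in EZH2 RIP-Seq, 1.94 times in IgG RIP-Seq and 1.60 times in lincRNAseq. At the 90th percentile the factors were 1.96 and 1.98 in the precipitates but 10.23 in lincRNAseq. At the 99th percentile they were 1.02 in EZH2 RIP-Seq, 0.832 in IgG RIP-Seq and 7.27 in lincRNAseq. The last factor for IgG rests on very few of the 128 detected transcripts. Scaffold values were thus higher up to the 90th percentile in both precipitates and no longer so among the very highest in EZH2 RIP-Seq, whereas lincRNAseq had a long upper tail on scaffolds. Low FPKM values depend on transcript length, because 1 fragment is worth more on a shorter transcript. Lengths were not used here, and their part in these shifts was not tested.

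**Figure D2:**
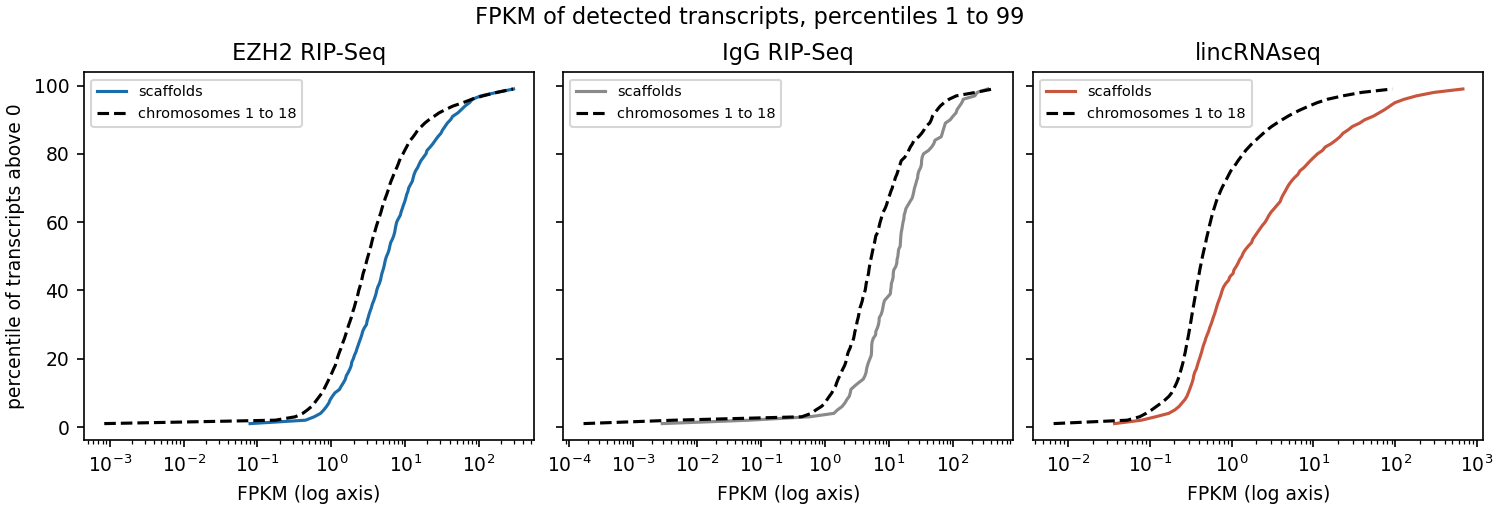
Percentiles 1 to 99 (vertical axis) of FPKM (horizontal axis, log scale) over detected transcripts on scaffolds (solid) and on chromosomes 1 to 18 (dashed) in each library. The scaffold curve lies to the right over most of its length in all 3 libraries, with medians of 5.59, 13.9 and 1.33, and the curves meet at the top in EZH2 RIP-Seq but not in lincRNAseq.

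The upper tail in lincRNAseq held many transcripts. A lincRNA_FPKM above 10 was found for 346 scaffold transcripts (19.8%), against 4.63% on chromosomes 1 to 18, where the highest chromosome reached 6.94%. Above 100 were 81 scaffold transcripts (4.64%) and 103 chromosomal transcripts (0.829%), and above 1000 were 12 and 5. An EZH2_FPKM above 10 was found for 244 scaffold transcripts (14.0%), against 8.01%, yet the share above 100 was 1.43%, against 1.49%. On chromosome X both shares were higher than on scaffolds, at 17.1% and 5.87%. An IgG_FPKM above 100 was found for 12 scaffold transcripts (0.688%, 0.394 to 1.20), against 0.233% (0.163 to 0.335). In the EZH2 precipitate the excess on scaffolds over chromosomes 1 to 18 was therefore in the middle of the range and not among the highest values.

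Transcripts of GL and JH scaffolds differed from each other in lincRNAseq level. The median lincRNA_FPKM of detected transcripts was 1.55 (1.35 to 1.84) on GL and 0.583 (0.515 to 0.693) on JH scaffolds, the latter nearer to that of the chromosomes. The intervals of the medians overlapped in the precipitates, with an EZH2_FPKM of 5.92 (5.15 to 6.82) on GL and 4.71 (3.59 to 5.99) on JH scaffolds, and an IgG_FPKM of 15.1 (11.7 to 17.5) and 8.14 (2.87 to 15.4). Detection was similar, at 40.9% (38.5 to 43.4) on GL and 45.8% (39.3 to 52.5) on JH scaffolds in EZH2 RIP-Seq, and at 94.1% and 92.1% in lincRNAseq.

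Because scaffold transcripts were more abundant in the tissue, detection in the precipitates was also compared among transcripts of similar lincRNA_FPKM. With lincRNA_FPKM above 1 to 10, EZH2_FPKM was above 0 for 217 of 564 scaffold transcripts (38.5%, 34.6 to 42.6), against 45.8% (43.6 to 48.0) on chromosomes 1 to 18. With lincRNA_FPKM above 10, it was above 0 for 129 of 346 (37.3%, 32.4 to 42.5), against 45.7% (41.7 to 49.8). In both classes scaffold transcripts were found less often in the EZH2 precipitate than chromosomal transcripts of the same class, by -7.33 percentage points (-11.8 to -2.71) and -8.46 (-14.9 to -1.87). Over lincRNA_FPKM above 1 as a whole, the scaffold share of 38.0% lay below that of each of the 18 chromosomes, the lowest of which was 38.4% on chromosome 11.

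At lower abundance the order was the other way or absent. With lincRNA_FPKM above 0.1 to 1, the EZH2 share was 46.0% on scaffolds (314 of 683) and 44.9% on chromosomes 1 to 18, and the interval of the difference, -2.75 to 5.04, holds 0. With lincRNA_FPKM at 0 it was 41.1% on scaffolds (44 of 107) and 32.7% on chromosomes, a difference of 8.40 percentage points with an interval of -0.71 to 18.1. With lincRNA_FPKM above 0 to 0.1, 20 of 44 scaffold transcripts (45.5%) and 34.8% of chromosomal transcripts were detected. Thus the EZH2 share on scaffolds was lower among abundant transcripts, and the opposite differences among scarce transcripts were within counting error.

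IgG detection rested on fewer transcripts. With lincRNA_FPKM above 10, IgG_FPKM was above 0 for 26 scaffold transcripts (7.51%, 5.18 to 10.8), against 11.1% (8.81 to 14.0) on chromosomes 1 to 18, a difference of -3.62 percentage points with an interval of -7.29 to 0.39. With lincRNA_FPKM above 1 as a whole, it was above 0 for 71 scaffold transcripts (7.80%, 6.23 to 9.73), against 8.84% (7.81 to 9.997) on chromosomes. The difference of -1.04 percentage points had an interval of -2.99 to 1.15. With lincRNA_FPKM at 0 the IgG share was 9.35% (10 of 107) against 4.82%, and the interval of this difference, 0.208 to 11.6, did not hold 0.

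The number of listed transcripts on a scaffold went along with EZH2 detection, a grouping chosen after the values were seen. EZH2_FPKM was above 0 for 29.8% (25.3 to 34.7) of the 359 transcripts that were alone on their scaffold. It was above 0 for 38.4% (34.5 to 42.5) of 570 transcripts on scaffolds with 2 to 4, 44.1% (39.8 to 48.5) of 499 on scaffolds with 5 to 9, and 56.3% (50.8 to 61.7) of 316 on scaffolds with 10 or more. The share was thus higher in each class than in the one before it, and the intervals of the first and last class were far apart. IgG detection went from 5.29% (3.41 to 8.12) to 10.4% (7.53 to 14.3) over the same classes. Detection in lincRNAseq stayed between 93.2% and 94.4%.

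With all scaffolds included, the order was the same within both classes of abundance that were split in this way. With lincRNA_FPKM above 0.1 to 1, the EZH2 share was 27.6% (29 of 105) for transcripts alone on a scaffold and 67.5% (102 of 151) on scaffolds with 10 or more. With lincRNA_FPKM above 1, it was 29.7% (68 of 229) and 49.6% (69 of 139). The level ran the opposite way, since the median lincRNA_FPKM of detected transcripts was 3.65 for transcripts alone on a scaffold and 0.815 on scaffolds with 10 or more, and the median EZH2_FPKM was 8.61 and 4.38. Transcripts that were alone were therefore less often detected in the EZH2 precipitate and had higher values when they were. Transcripts of 1 scaffold share a place in the genome and may share exons, so they are not independent of each other.

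**Figure D3:**
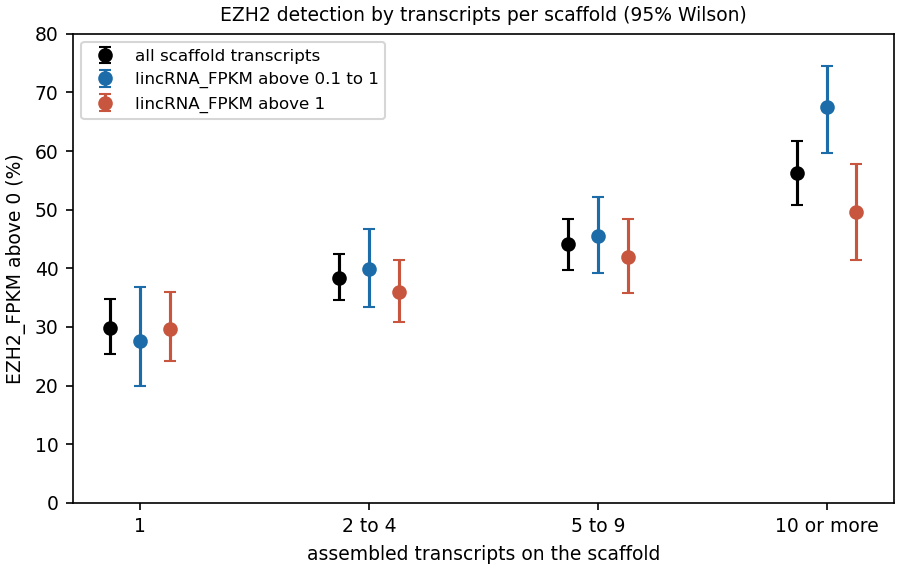
Percent of scaffold transcripts with EZH2_FPKM above 0 (vertical axis) by the number of listed transcripts on their scaffold (horizontal axis). Values are for all scaffold transcripts and for those with lincRNA_FPKM above 0.1 to 1 or above 1. Bars are 95% Wilson intervals. The share goes from 29.8% to 56.3% over all scaffold transcripts and from 27.6% to 67.5% in the class above 0.1 to 1.

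The 5 scaffolds with the most transcripts are part of the class with 10 or more. Of their 118 transcripts, 83 were detected in the EZH2 precipitate (70.3%), 11 in IgG and 115 in lincRNAseq. Without them, a comparison added after seeing the data, the EZH2 share of the class was 48.0% (41.1 to 54.9; 95 of 198) in place of 56.3%, so that its interval overlapped that of scaffolds with 5 to 9 transcripts. On JH118724.1, 24 of 34 transcripts were detected in EZH2 RIP-Seq and 2 in IgG RIP-Seq. On GL892391.1 these numbers were 22 and 3 of 27, on GL895144.1 13 and 0 of 20, on GL895582.1 13 and 2 of 20, and on GL894420.1 11 and 4 of 17. Together they held 4.12% of the summed EZH2_FPKM of all scaffolds and 0.946% of the summed lincRNA_FPKM. Most of this was on GL895582.1, with 2.12% and 0.897%, where TCONS_00072605 reached a lincRNA_FPKM of 1023 and TCONS_00072603 an EZH2_FPKM of 170.3. Among 98 scaffolds with at least 5 transcripts, the median share detected in the EZH2 precipitate was 42.3%, 7 scaffolds had no detected transcript and 1, GL894848.1, had all.

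Scaffolds carried very different shares of the FPKM summed over listed transcripts in the 3 libraries. These sums leave out all RNA that is not listed and are scaled by length, so they are not shares of a library's reads. They held 10.005% of the summed EZH2_FPKM, 12.4% of the summed IgG_FPKM and 68.3% of the summed lincRNA_FPKM, beside 12.0% of the transcripts. In the precipitates the sum was thus near the share of transcripts, whereas in lincRNAseq it was several times higher. No chromosome held more than 8.89% of the lincRNAseq sum. Chromosome 6 alone held 25.5% of the EZH2 sum and 28.0% of the IgG sum. A chromosome's share can rest on a single transcript. The highest value on chromosomes 1 to 18 was 37497.5 in EZH2 RIP-Seq and 9386.67 in IgG RIP-Seq, beside sums of 175686.7 and 38726.57 over all listed transcripts.

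A few transcripts decide these sums. Without the highest transcript of the lincRNAseq library, the scaffold share was 55.6%, and without the 10 highest, 6 of which lay on scaffolds, it was 43.1%. Without the 10 highest transcripts of each precipitate, 1 of which lay on a scaffold in each, the scaffold share was 15.2% for EZH2 and 20.8% for IgG. The lincRNAseq share stayed above that of both precipitates, but the distance between them was much smaller.

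The lincRNAseq signal of scaffolds came from very few of them. The 10 highest scaffolds held 80.4% of the scaffold sum, and 2 scaffolds were enough for 50% of it, although 654 of 676 scaffolds had some signal. In the EZH2 precipitate the 10 highest held 51.4% and 336 scaffolds had signal. In the IgG precipitate the 10 highest held 60.9% and 92 scaffolds had signal. Of the 10 highest scaffolds, 6 were shared by EZH2 and IgG RIP-Seq, 3 by EZH2 RIP-Seq and lincRNAseq, and 3 by IgG RIP-Seq and lincRNAseq.

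The highest scaffold in lincRNAseq, GL894823.1, carried a single listed transcript, TCONS_00071881. Its lincRNA_FPKM was 67573, its EZH2_FPKM 1892 and its IgG_FPKM 230.7. It made up 41.9% of the lincRNAseq sum of all scaffolds and 28.6% of the sum over all 14580 transcripts. This transcript was also the highest scaffold transcript of the EZH2 precipitate, with 10.8% of the scaffold sum there, and was detected in IgG as well. What gene or repeat it belongs to is not known from its identifier, since identifiers of assembled transcripts are not paired with gene names.

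Next in lincRNAseq was GL894812.1, with 16.9% of the scaffold sum and 2 transcripts. Its TCONS_00071869 had a lincRNA_FPKM of 27215, an EZH2_FPKM of 135.0 and an IgG_FPKM of 0, whereas its neighbour TCONS_00071868 had 2.37, 43.4 and 0. An abundant and a scarce transcript thus lay on the same scaffold, and the ratio of their EZH2 values was far smaller than that of their abundance. On GL895129.1, with 9.09%, TCONS_00072173 had a lincRNA_FPKM of 14667, an EZH2_FPKM of 1052 and an IgG_FPKM of 696.5. This scaffold was also the highest of the IgG precipitate, with 15.1% of the scaffold sum. The remaining scaffolds among the first 5 were GL893512.1 and GL896085.1. The only listed transcript of GL893512.1, TCONS_00070154, had a lincRNA_FPKM of 7985, an EZH2_FPKM of 102.0 and an IgG_FPKM of 0. On GL896085.1, TCONS_00073029 had a lincRNA_FPKM of 4424, an EZH2_FPKM of 28.3 and an IgG_FPKM of 142.6. By the step of 5.05, its EZH2 and IgG values are the same number of fragments in both precipitates.

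Over the 12 scaffold transcripts with a lincRNA_FPKM above 1000, which lay on 12 different scaffolds and of which 5 were alone there, 8 were detected in the EZH2 and 3 in the IgG precipitate. They held 81.4% of the scaffold sum in lincRNAseq, 18.9% in EZH2 RIP-Seq and 22.3% in IgG RIP-Seq. Their median EZH2_FPKM was 31.3. The values in the precipitates ran widely: EZH2_FPKM was listed at 0 for 4 of the 12 and IgG_FPKM for 9, while TCONS_00071881 and TCONS_00072173 were the only scaffold transcripts with an EZH2_FPKM above 1000.

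**Figure D4:**
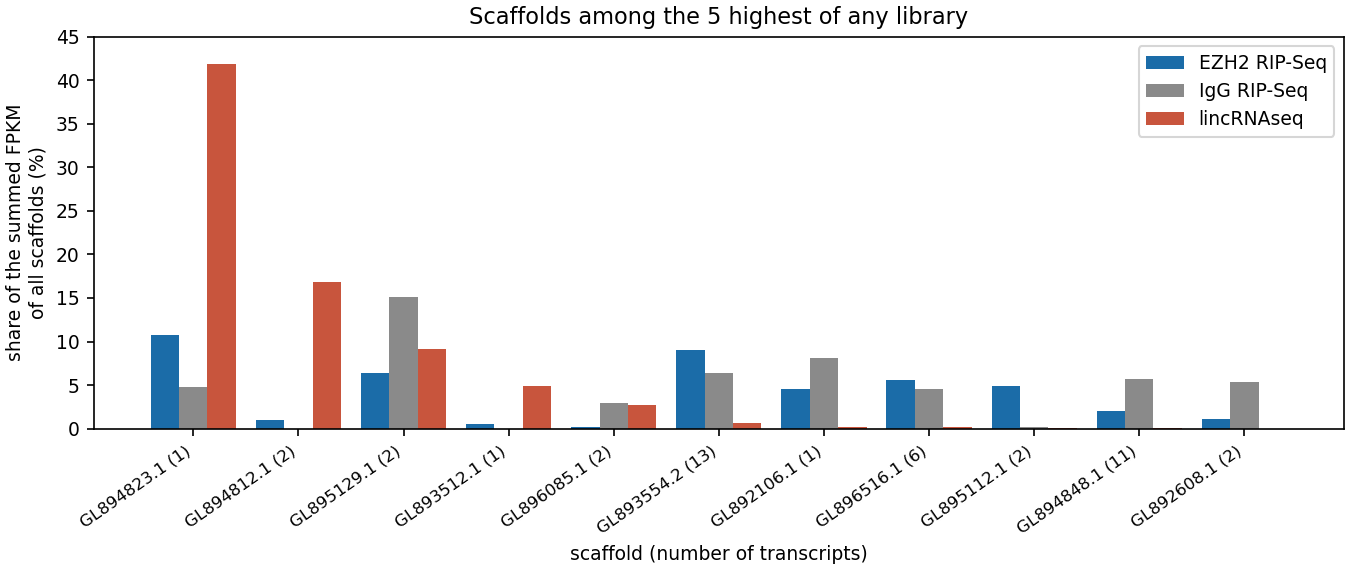
Share of the summed FPKM of all unplaced scaffolds (vertical axis, percent) held by each scaffold that was among the 5 highest of any library. There is 1 bar per library, with the number of listed transcripts in parentheses. GL894823.1 leads in lincRNAseq with 41.9% and in EZH2 RIP-Seq with 10.8%, and GL895129.1 leads in IgG RIP-Seq with 15.1%.

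Other scaffolds were among the 5 highest in the EZH2 precipitate but not in lincRNAseq. GL893554.2, of rank 2 in EZH2 RIP-Seq and rank 13 in lincRNAseq, held 9.06% of the EZH2 sum of scaffolds and 0.661% of the lincRNAseq sum. Of its 13 transcripts, 11 were detected in EZH2 RIP-Seq, 3 in IgG RIP-Seq and 12 in lincRNAseq. TCONS_00070185 had a lincRNA_FPKM of 5.98, an EZH2_FPKM of 756.4 and an IgG_FPKM of 146.8, and TCONS_00070184 had 19.4, 603.8 and 132.4. Its most abundant transcript in the tissue, TCONS_00070189, with a lincRNA_FPKM of 737.8, was at 0 in both precipitates. On this scaffold the transcripts that were high in the precipitates and those that were high in the tissue were different ones.

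GL896516.1 held 5.56% of the EZH2 sum, with 5 of 6 transcripts detected. Its TCONS_00074313 had a lincRNA_FPKM of 192.9., an EZH2_FPKM of 516.3 and an IgG_FPKM of 66.8 GL895112.1 held 4.89%, nearly all of it from TCONS_00072159, with an EZH2_FPKM of 795.6 and both other values listed at 0. The neighbour TCONS_00072160 had a lincRNA_FPKM of 129.1., an EZH2_FPKM of 64.6 and an IgG_FPKM of 10.5 TCONS_00072159 was the highest of 44 scaffold transcripts with EZH2_FPKM above 0 and lincRNA_FPKM at 0, which lay on 40 scaffolds and held 14.7% of the EZH2 sum of scaffolds. Of these 44, 6 were detected in the IgG precipitate, and their median EZH2_FPKM was 20.3.

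In the IgG precipitate, GL892106.1 followed GL895129.1 with 8.11% of the scaffold sum. Its only listed transcript, TCONS_00068688, had an IgG_FPKM of 389.3, an EZH2_FPKM of 801.3 and a lincRNA_FPKM of 374.3. GL893554.2 was next with 6.33%, mostly through TCONS_00070185 and TCONS_00070184, with an IgG_FPKM of 146.8 and 132.4. GL894848.1 held 5.72%, and of its 11 transcripts all were detected in the EZH2 precipitate and 7 in the IgG precipitate. Its TCONS_00071914 had an IgG_FPKM of 116.3, an EZH2_FPKM of 47.0 and a lincRNA_FPKM of 14.5, and its TCONS_00071910, the highest there in EZH2 RIP-Seq, had 114.7, 79.5 and 12.7. Both had a higher IgG_FPKM than EZH2_FPKM, although by the step of 5.05 they had 2.04 and 3.50 EZH2 fragments for each IgG fragment. GL892608.1 held 5.31% through TCONS_00069042, with an IgG_FPKM of 254.8, an EZH2_FPKM of 185.2 and a lincRNA_FPKM of 0. Several of the scaffolds that were high in the EZH2 precipitate were thus high with the control antibody too.

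Scaffold transcripts were then compared between libraries one by one, with log2 ratios of FPKM + 2 and a threshold of 1. Of the 100 detected in both precipitates, 24 had an EZH2 to IgG ratio of at least 1, where the share over all 815 such transcripts was 20.5%. A ratio of -1 or less was found for 31 of the 100, against 24.2% over all. The median ratio was -0.28 on scaffolds, with an interval of -0.57 to -0.01, and -0.10 on chromosomes 1 to 18. More scaffold transcripts were therefore past the threshold toward IgG than toward EZH2, and both shares were near those of all transcripts, within Wilson intervals of 16.7 to 33.2% and 22.8 to 40.6%. Counted in fragments by the step of 5.05, 79 of the 100 had more EZH2 than IgG fragments, as had 559 of 684 on chromosomes 1 to 18. The part of depth in these ratios was not tested.

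Of 680 scaffold transcripts detected in EZH2 RIP-Seq and lincRNAseq, 286 had an EZH2 to lincRNAseq ratio of at least 1 (42.1%, 38.4 to 45.8), near the 41.4% of all 5523 such transcripts. A ratio of -1 or less was found for 90 (13.2%, 10.9 to 16.0), against 6.37% over all and 5.50% on chromosomes 1 to 18. The medians were close, at 0.74 on scaffolds and 0.79 on chromosomes. The larger difference was at the lower end, where lincRNA_FPKM was well above EZH2_FPKM. Without a pseudocount, EZH2_FPKM exceeded lincRNA_FPKM for 509 of the 680 (74.9%) and for 84.8% of chromosomal transcripts.

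**Figure D5:**
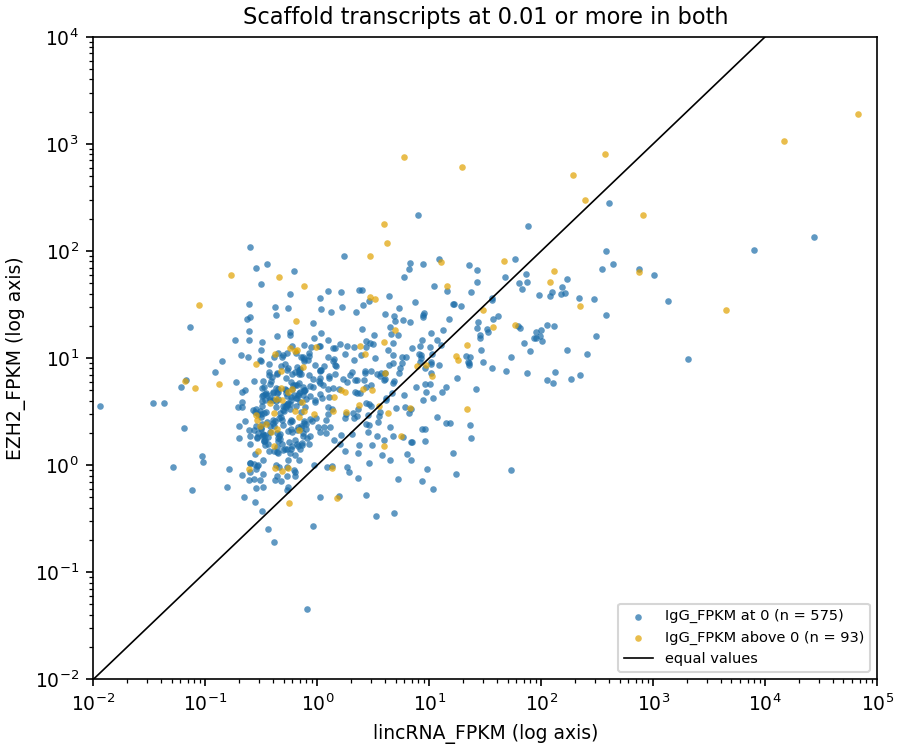
EZH2_FPKM (vertical, log scale) against lincRNA_FPKM (horizontal, log scale) for 668 scaffold transcripts with at least 0.01 in both, coloured by whether IgG_FPKM was 0 (575) or above 0 (93); the line marks equal values. Most points, 504, lie above the line, and the transcripts with the highest lincRNA_FPKM lie below it.

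The study took transcripts as EZH2-binding where lincRNA_FPKM was above 1, EZH2_FPKM was above 0 and a log2 ratio was at least 1, with IgG as the denominator where IgG_FPKM was above 0 and lincRNAseq where it was 0. Its further limit on coding potential was not applied here, and its later removal of repetitive lincRNAs by hand was not repeated. Of the scaffold transcripts, 346 entered, and 102 on 73 scaffolds passed. With IgG_FPKM at 0, 84 of 294 passed (28.6%, 23.7 to 34.0), beside 26.4% over all 1316 transcripts. With IgG_FPKM above 0, 18 of 52 passed (34.6%, 23.2 to 48.2), beside 34.6% over all 254. Scaffold transcripts that entered thus passed about as often as transcripts in general. At the other end, 18 of the 52 with IgG_FPKM above 0 had a ratio of -1 or less (34.6%, 23.2 to 48.2), against 18.5% over all and 14.7% (10.3 to 20.4) on chromosomes 1 to 18, and the median ratio of the 52 was -0.28 (-0.99 to 0.80), an interval that holds the 0.34 of chromosomes. By the step of 5.05, and within 1%, 2 of these 18 had fewer EZH2 than IgG fragments, 8 had equal numbers and 8 had more EZH2 fragments. On chromosomes 1 to 18 these numbers were 10, 4 and 14 of 28. With IgG_FPKM at 0, 81 of 294 had a ratio of -1 or less (27.6%, 22.8 to 32.9), beside 23.0% over all. Scaffold transcripts made up 22.0% of those that entered and 23.4% of those that passed, more than their 12.0% of all transcripts, since 52.2% of them had a lincRNA_FPKM above 1, against 20.8% on chromosomes 1 to 18.

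The scaffold with the most transcripts past the rule was GL893554.2, with 6 of its 13 listed transcripts, not all of which entered. It is the highest of the 73 scaffolds with a transcript that passed. Over all transcripts that entered, 436 of 1570 passed (27.8%). On GL895567.1, all 3 of its listed transcripts passed, a scaffold noted after its values were seen. Among scaffold transcripts that entered the rule, GL895567.1 held the one with the largest EZH2 to IgG ratio. Among those that entered with IgG_FPKM at 0, it held one of the 2 with the largest EZH2 to lincRNAseq ratios. TCONS_00072584, with a lincRNA_FPKM of 244.1, an EZH2_FPKM of 297.3 and an IgG_FPKM of 23.2, had an EZH2 to IgG ratio of 3.57. TCONS_00071881 of GL894823.1 followed with 3.02, although its lincRNA_FPKM far exceeded its EZH2_FPKM.

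Among scaffold transcripts that entered the rule, and so had a lincRNA_FPKM above 1, with IgG_FPKM at 0, TCONS_00070181 of GL893554.2 had the largest ratio of EZH2 to lincRNAseq, 4.63, from an EZH2_FPKM of 90.6 and a lincRNA_FPKM of 1.73. TCONS_00072581 of GL895567.1 had a ratio of 4.46, from 218.2 and 8.01. The lowest ratios were those of TCONS_00071869, at -7.63, and of TCONS_00072071 on GL895023.1, at -7.42, with an EZH2_FPKM of 9.87 and a lincRNA_FPKM of 2030. Where IgG_FPKM was above 0, the lowest EZH2 to IgG ratio of a scaffold transcript under the rule was that of TCONS_00071402 on GL894401.1, at -3.00, with a lincRNA_FPKM of 10.7., an EZH2_FPKM of 6.74 and an IgG_FPKM of 68.0 TCONS_00073092 on GL896133.1 followed at -2.30, with an IgG_FPKM of 7.88, a lincRNA_FPKM of 1.55 and an EZH2_FPKM of 7.69e-05, which is above 0 only in a formal sense. Such values below 0.01 were rare on scaffolds, with 7 in EZH2 RIP-Seq, 2 in IgG RIP-Seq and 12 in lincRNAseq.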

How the data were processed

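The authors deposited FPKM values for 3 libraries, made by alignment to Sscrofa10.2 with TopHat2, assembly with Cufflinks and estimation with Cuffdiff; versions are not given in the sources used here. How reads with several alignments were handled is not given either, which matters for repeated sequence. Each library had 26521 rows and 14580 distinct transcripts; of the 1744 on scaffolds, 1345 were on 2 identical rows, and each was counted once. The members and lists were chosen with earlier results of these data known. Shares have 95% Wilson intervals, differences of shares Newcombe intervals and medians order-statistic intervals. No test was run, because each condition had 1 library. The pseudocount was 2 and the log2 threshold 1. Named were the 5 scaffolds with the highest sum in each library and the 5 with the most transcripts, the highest transcripts on them, and the 2 highest and 2 lowest ratios of each kind; others are stated as chosen after their values were seen. The code was checked on simulated data. Alternatives were the detection limit, pseudocount, threshold, rows, prefix, comparison set, centring and leaving out the highest transcripts. Strand, lengths, coordinates and coding potential were not used here. Computations ran in Python 3.11.15 with pandas 2.3.3, numpy 2.4.6, scipy 1.17.1 and matplotlib 3.10.9.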

Additional observations from a re-analysis of the deposited data

How the results depend on the processing

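Over 14 results and 51 alternatives, 34 values stayed within the counting interval of the main value, or within 1.5 times of it for counts and sums. The small EZH2 detection difference of -1.27 percentage points changed sign to 1.73 with FPKM above 1, to 3.01 on JH scaffolds and to 1.76 without scaffolds of 1 transcript, the last chosen after seeing the data; its sign is not settled. The lincRNAseq difference of 9.23 was 10.7 with FPKM above 0.1, 31.3 above 1 and 7.43 on JH scaffolds; for both, the cause was not tested. Differences in median log2 FPKM kept their sign: with a pseudocount of 0.1 they were 0.81 for EZH2, 1.35 for IgG and 1.41 for lincRNAseq, which follows from the smaller constant, and for lincRNAseq 0.70 with a pseudocount of 1 and 0.37 with rows counted. Without the 10 highest transcripts, scaffolds held 15.2% of the EZH2, 20.8% of the IgG and 43.1% of the lincRNAseq sum. In place of 102 scaffold transcripts (29.5% of those that entered, against 26.4% on chromosomes 1 to 18), 38 passed a threshold of 2 (11.0% against 12.0%, the other order) and 254 passed with lincRNA_FPKM above 0.1 (38.5% against 36.2%), which admits more transcripts. Centring the ratios subtracted 0.37 from EZH2 to IgG and 0.03 from EZH2 to lincRNAseq and left 94. Comparisons limited to transcripts without a strand were not run, because strand was not used here. Without the 5 scaffolds with most transcripts, EZH2 detection on scaffolds with 10 or more was 48.0% in place of 56.3%. No paired analysis was possible because every condition had 1 library. The larger weight of 1 fragment in the IgG library limits every ratio to IgG.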

Other observations

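Of 128 scaffold transcripts detected in the IgG precipitate, 100 were also detected in the EZH2 precipitate (78.1%, 95% Wilson interval 70.2 to 84.4), against 77.6% (74.7 to 80.2) on chromosomes 1 to 18. In the other direction, 100 of the 724 detected with EZH2 were detected with IgG (13.8%, 11.5 to 16.5), against 12.9% (12.0 to 13.8). Scaffold transcripts detected with EZH2 were less often without lincRNAseq signal, at 6.08% (4.56 to 8.06), than chromosomal transcripts, at 11.8% (10.9 to 12.6). Over all transcripts, detected with EZH2 or not, lincRNA_FPKM was at 0 for 6.14% on scaffolds and 15.4% on chromosomes 1 to 18, so that this restates the difference in lincRNAseq detection. In lincRNAseq alone were 933 scaffold transcripts (53.5%, 51.2 to 55.8), against 45.5% (44.6 to 46.4) on chromosomes 1 to 18. At 0 in all 3 libraries were 59 scaffold transcripts (3.38%), against 10.1% on chromosomes 1 to 18.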
